A study of Mus musculus with 24 samples.

Results

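The Reg family genes were followed in mouse pancreatic islets through the array probes that carry the names Reg1, Reg2, Reg3a, Reg3b, Reg3d, Reg3g and Reg4. These 7 genes were taken from 34797 gene names on the array by their name, with earlier results of these data known. Each had 1 probe of 60 bases, printed in 1 spot. Islets of male C57BL6/J mice (BL6) and male C57BLKs/J mice (BLKS), 8 weeks old when the diets began, were measured in 6 groups of 4 mice, each mouse on an array of its own. Both strains received normal chow (18% kcal from fat), a high-fat diet, abbreviated HFD (42% kcal from fat), or the HFD mixed with 140 mg of pioglitazone per kg, a drug that activates the nuclear receptor PPAR-gamma. Feeding lasted 12 weeks by the sample labels but 16 weeks by the series text. The islets were freed from the pancreas with collagenase and a neutral protease, and the labels name no sorting of cells.

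Reg proteins are small secreted proteins built around a C-type lectin fold. They were first described in regenerating islets and in pancreatitis, and in the mouse pancreas they are made largely by acinar cells, the exocrine cells that secrete digestive enzymes. Reg3 genes are known targets of Il6-type and Il22 cytokines acting through the transcription factor Stat3. Reg3b and Reg3g are also abundant in the intestine, where Reg3g acts against Gram-positive bacteria, and Extl3 has been described as a receptor for Reg proteins.

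The 6 members other than Reg4 form a single cluster on chromosome 6. In the RefSeq annotation of the GRCm38.p6 assembly their order along the chromosome was Reg3b, Reg3d, Reg3a, Reg2, Reg1 and Reg3g, with the pseudogene Gm52853 between Reg1 and Reg3g. Reg4 lies on chromosome 3. The accession of each of the 7 probes matched the same symbol in RefSeq. Per the files, on build mm9, the Reg1 probe lies at chr6:78378527-78378586 and the Reg2 probe at chr6:78357959-78358018, both on the plus strand. The Reg3a probe lies at chr6:78333635-78333694 and the Reg3b probe at chr6:78323323-78323382, again on the plus strand. The Reg3d probe at chr6:78325868-78325927 and the Reg3g probe at chr6:78416420-78416479 are on the minus strand. The part of the transcript under each probe was not analysed here, since no mm9 annotation was used.

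The first 30 bases of each probe in the cluster are shown because the members are close relatives, and the letters are what tells one transcript from another on the array. The longest run of bases shared by any pair of the 7 probes, on either strand, was 8 of 60, between Reg1 and Reg3g.
Reg1: ggaccatctatcaaaagcaaattagatcct
Reg2: acagtactcctttgtctgcaagttcagagc
Reg3a: cccatgacaagggatgaaatacaagaattc
Reg3b: gtgaagactcacctagaaaaagcattttct
Reg3d: gtgtattctctggggactctggcctaagga
Reg3g: gagtacagaattgacatcatgggttgatat

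The 150 bases before each annotated start are shown for the cluster because several of its genes varied together from mouse to mouse. Sequences are from RefSeq on GRCm38.p6, 5′ to 3′ along the gene. Capitals mark 3 motifs searched on both strands: TTCNNNGAA, the spaced palindrome that Stat factors are known to bind, the TATA box TATAAA, and CCAAT. The stretches are Reg1 at chr6:78425833-78425982 (plus strand), Reg2 at chr6:78405005-78405154 (plus), Reg3b at chr6:78370735-78370884 (plus), Reg3g at chr6:78468875-78469024 (minus), Reg3d at chr6:78378866-78379015 (minus) and Reg3a at chr6:78380559-78380708 (plus).
Reg1: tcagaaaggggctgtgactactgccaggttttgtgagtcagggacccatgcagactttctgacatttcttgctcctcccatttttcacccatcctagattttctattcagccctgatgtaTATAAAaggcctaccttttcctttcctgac
Reg2: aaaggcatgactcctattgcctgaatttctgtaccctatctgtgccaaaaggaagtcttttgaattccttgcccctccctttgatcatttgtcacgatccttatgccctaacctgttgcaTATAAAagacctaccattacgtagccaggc
Reg3b: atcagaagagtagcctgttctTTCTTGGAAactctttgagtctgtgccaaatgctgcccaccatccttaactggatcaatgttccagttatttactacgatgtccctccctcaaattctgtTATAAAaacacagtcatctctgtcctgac
Reg3g: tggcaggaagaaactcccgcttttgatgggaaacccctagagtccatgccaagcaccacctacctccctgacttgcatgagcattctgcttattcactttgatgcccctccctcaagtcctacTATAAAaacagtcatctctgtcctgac
Reg3d: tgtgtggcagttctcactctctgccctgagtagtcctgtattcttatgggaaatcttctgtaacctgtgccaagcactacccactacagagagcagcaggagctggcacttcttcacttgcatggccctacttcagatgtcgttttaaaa
Reg3a: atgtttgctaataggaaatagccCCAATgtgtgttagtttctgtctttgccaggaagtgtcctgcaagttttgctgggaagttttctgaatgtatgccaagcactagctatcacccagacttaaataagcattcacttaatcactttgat

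TATAAA stood on the gene's own strand at positions -30 to -25 from the start in both Reg1 and Reg2, at -29 to -24 in Reg3b and at -27 to -22 in Reg3g. On either strand and at any position, it was found in 13.6% of 32851 RefSeq promoter windows, which run from 250 bases before to 50 after a start. By that wider rule Reg1 also held it at 35 to 40 and Reg3g at -161 to -156, both on the opposite strand. The share of windows with TATAAA at the positions near the start was not counted. TTCNNNGAA was found at -129 to -121 in Reg3b and, outside the stretch shown, at -238 to -230 in Reg3d, and 8.3% of all windows held it. CCAAT was found at -127 to -123 in Reg3a and in 37.4% of all windows. In gapped alignments of the 150-base stretches, Reg3b and Reg3g matched at 71.3% of bases and Reg1 and Reg2 at 68.0%. The stretch of Reg4, which lies outside the cluster, matched those of the 6 other members at 56.0% to 57.3%.

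Levels are given as the log2 processed signal of the probe minus the 75th percentile of its array, so 0 marks a probe as bright as that percentile. Different probes bind with different strength, so levels are compared between arrays for 1 probe and never between probes. The endocrine hormone genes were bright in every library, with Ins2, the main mouse insulin gene, between 8.92 and 9.76 and glucagon (Gcg) between 8.96 and 9.78. The summed level of acinar markers varied far more. The acinar score, the mean log2 level of the 31 measured of 35 listed acinar markers, which include no Reg gene, ran from -3.29 in mouse 1 of the BLKS chow group to 6.13 in mouse 3 of the BLKS HFD group. Its range was -1.36 to 5.68 in BL6 on chow, 2.17 to 4.78 in BL6 on HFD, 3.26 to 4.52 in BL6 on HFD with pioglitazone, -3.29 to 5.02 in BLKS on chow, 3.26 to 6.13 in BLKS on HFD and 1.16 to 6.06 in BLKS on HFD with pioglitazone. Of the markers that define the acinar fate, Ptf1a was well above background on 10 of 24 arrays, Rbpjl on 22 and Bhlha15 on 24. Bhlha15 did not follow the score and read 3.86 on the array of lowest score. Within groups its slope per log2 unit of score was -0.03 ± 0.03 (SE), against 0.61 ± 0.09 for Ptf1a and 0.63 ± 0.06 for Rbpjl. In RNA from whole islet preparations, fewer cells of a type and less RNA per cell cannot be told apart.

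The arrays lay on 4 slides, and this limits the comparisons. BL6 on chow and BL6 on HFD shared slide 1, and both BLKS groups on HFD shared slide 4. BL6 on HFD with pioglitazone and BLKS on chow shared slides 2 and 3. The HFD comparison in BL6 and the pioglitazone comparison in BLKS therefore lie within 1 slide, whereas strain and slide cannot be told apart for mice on the same diet.

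Reg1, the founding member of the family and a secreted product of acinar cells, was well above background on 23 of 24 arrays. Its levels on chow were 1.75, 5.82, 2.92 and -2.44 in BL6 mice 1 to 4 and -6.35, 5.47, 1.01 and 4.40 in BLKS mice 1 to 4. On HFD they were 4.57, 2.34, 5.60 and 2.98 in BL6 and 5.17, 3.77, 6.63 and 2.74 in BLKS. With pioglitazone they were 3.08, 4.74, 3.58 and 4.82 in BL6 and 0.33, 3.71, 6.69 and 6.45 in BLKS. All 6 groups overlapped, and the lowest array, mouse 1 of BLKS on chow, was the only one on which the Reg1 probe was not well above background. That array also had the lowest acinar score of all 24.

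Reg3d, a member of the Reg3 group that lies next to Reg3b and Reg3a, was also above background on 23 arrays. It ran from -4.90 (mouse 4 of BL6 on chow) to 2.83 (mouse 3 of BLKS on HFD with pioglitazone). Group means were -1.95 ± 2.64 (SD, n = 4) in BL6 on chow, -0.60 ± 1.23 on HFD and -0.65 ± 0.71 with pioglitazone. In BLKS they were -1.63 ± 2.26, 0.02 ± 1.40 and 0.14 ± 3.00. The ranges of all 6 groups overlapped.

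Reg2, a close relative of Reg1 and its neighbour in the cluster, was well above background on 16 arrays, 8 of 12 in each strain. Its levels on chow were -6.58, -2.62, -2.73 and -6.60 in BL6 and -6.58, 2.45, -4.77 and -1.14 in BLKS. On HFD they were -3.45, -4.70, 1.30 and -2.77 in BL6 and 4.42, -2.22, -0.41 and -2.04 in BLKS. With pioglitazone they were -6.07, -2.51, -4.37 and 0.95 in BL6 and -6.56, -6.04, 3.39 and 1.55 in BLKS. The BLKS pioglitazone group split into 2 mice at the floor of the array and 2 mice among the brightest of the study. All groups overlapped apart from BL6 on chow, which lay wholly below BLKS on HFD, and the highest single value belonged to mouse 1 of BLKS on HFD.

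Reg3b, also known as pancreatitis-associated protein, was well above background on 12 arrays, 3 of 12 in BL6 and 9 of 12 in BLKS. On chow its levels were -4.84, -4.42, -5.20 and -6.44 in BL6, none above background, and -4.82, 0.10, -4.36 and -1.92 in BLKS. On HFD they were -3.42, -5.17, 0.10 and -5.27 in BL6 and -0.11, -2.32, -0.87 and -1.75 in BLKS. With pioglitazone they were -5.91, -4.48, -5.18 and -0.68 in BL6 and -6.17, -6.69, 2.43 and 1.79 in BLKS. BLKS on HFD was the only group in which all 4 mice had Reg3b above background, and mouse 3 of BL6 on HFD lay above its range. BLKS on HFD with pioglitazone held both the lowest Reg3b value and the 2 highest. As for Reg2, BL6 on chow lay wholly below BLKS on HFD, 2 groups that differ in both strain and diet, and all other groups overlapped. The share of all genes that separate these groups is not given here, so the gap is not read as a trait of Reg2 or Reg3b.

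Reg3a and Reg3g were near the floor on most arrays. Both were well above background on the same 5 arrays, namely mouse 3 of BL6 on HFD, mouse 2 of BLKS on chow, mouse 1 of BLKS on HFD and mice 3 and 4 of BLKS on HFD with pioglitazone. All 5 arrays also had Reg2 and Reg3b above background. On these arrays, in that order, Reg3g, the antibacterial lectin of the gut, read -2.44, -0.87, -2.89, 0.31 and -1.16. On the other 19 arrays Reg3g lay between -6.70 and -4.67.

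Reg3a read -3.09, -3.00, -3.84, -2.19 and -3.19 on the same 5 arrays and lay between -6.67 and -4.60 elsewhere. In each of the 2 genes the 5 detected arrays were brighter than every other array, which is close to given, since detection rests on the probe's own signal. Reg4, known mainly from the intestine and its endocrine cells, stayed at background on all 24 arrays, with signals from -7.00 to -5.92, and the filter on dim probes left it out of the fit.

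**Figure D1:**
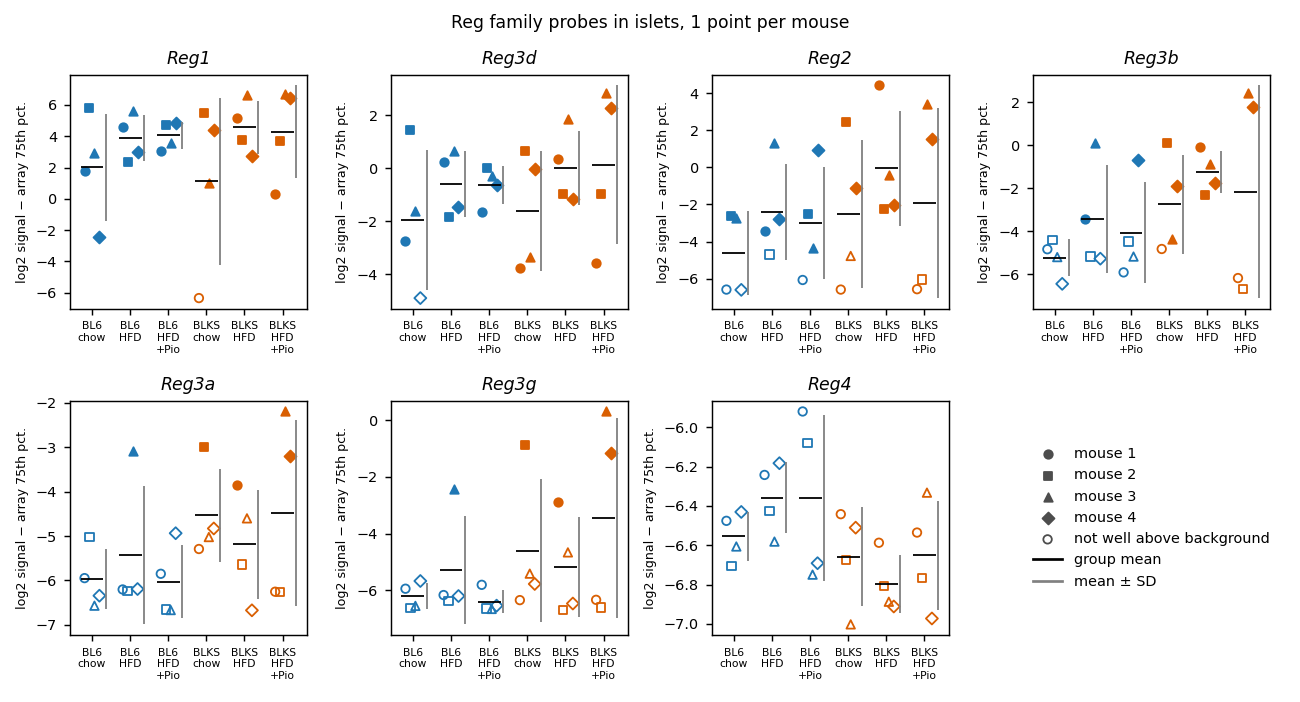
Each panel plots 1 Reg probe: the vertical axis is its log2 processed signal minus the array's 75th percentile and the horizontal axis gives the 6 groups. Points are mice (marker shape gives the mouse number, open markers are not well above background), black bars are group means and grey bars mean ± SD; Reg1 spans 11.82 log2 units inside BLKS on chow, and Reg3a and Reg3g stand off the floor on the same 5 arrays.

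The spread between mice of the same group was among the largest on the array. The pooled SD within groups was 3.48 for Reg2, 3.02 for Reg1, 2.68 for Reg3b, 2.09 for Reg3g, 2.04 for Reg3d and 1.33 for Reg3a. The median over the 22968 genes tested was 0.21, and 97.76% of genes or more had a smaller SD than each of these members. Acinar enzymes spread as widely, at 2.98 for the trypsinogen gene Prss2 and 2.61 for the carboxypeptidase gene Cpa1, whereas Ins2 and Gcg had SDs of 0.21 and 0.19.

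The first comparison asked whether the HFD changed the members within a strain. No member passed the test: limma called 0 of 6 tested members at a Benjamini-Hochberg adjusted p of 0.05 in BL6, where it called 0.0435% of all genes, and 0 of 6 in BLKS, where it called 0.0784%. Also without adjustment, 0 of 6 members were under 0.05 in either strain, against 1255 of all genes in BL6 and 2112 in BLKS. In BL6 the log2 difference of HFD minus chow was 1.86 ± 2.03 (SE, n = 4 mice a group) for Reg1, 1.35 ± 1.37 for Reg3d, 2.23 ± 2.34 for Reg2, 1.78 ± 1.80 for Reg3b, 0.54 ± 0.89 for Reg3a and 0.90 ± 1.40 for Reg3g. The median over these 6 members was 1.57 against -0.0007 over all genes, and every adjusted p was 0.974. Reg3a and Reg3g entered the fit through the few arrays on which they were bright, so counts and medians over the 6 tested members only describe them.

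In BLKS the same difference was 3.44 ± 2.03 for Reg1, 1.65 ± 1.37 for Reg3d, 2.45 ± 2.34 for Reg2, 1.49 ± 1.80 for Reg3b, -0.65 ± 0.89 for Reg3a and -0.58 ± 1.40 for Reg3g. The adjusted p-values in limma ran from 0.659 to 0.95. Because no BL6 mouse on chow had Reg3b above background, its level on HFD can be given only as at least 1.97-fold that on chow. The bound rests on 2 of the 4 HFD mice and allows for the floor, not for the spread between mice. With 1 mouse left out, the BL6 difference of Reg3b ranged from 0.60 to 2.39.

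The acinar markers had median differences of the same sign as most of these estimates. The median log2 difference over the 31 acinar markers was 1.76 in BL6 and 2.64 in BLKS, and limma called 0 of 31 in each strain, with an unadjusted p under 0.05 for 1 of 31 in BL6 and 0 of 31 in BLKS. With the acinar score as a covariate, the BL6 differences became -0.16 for Reg1, 0.08 for Reg3d, 0.60 for Reg2, 0.66 for Reg3b, 0.03 for Reg3a and 0.19 for Reg3g. In BLKS they became 0.27 for Reg1, -0.36 for Reg3d, -0.10 for Reg2, -0.28 for Reg3b, -1.46 for Reg3a and -1.70 for Reg3g. Single mice also set directions: without mouse 3 of BL6 on HFD, the BL6 difference was -0.24 for Reg3a and -0.05 for Reg3g, and without mouse 2 of BLKS on chow the BLKS difference of Reg3g was 0.67. The size of the Reg1 difference in BLKS also rested on single chow mice, being 0.95 without mouse 1, the array of lowest acinar score, and 4.89 without mouse 2.

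**Figure D2:**
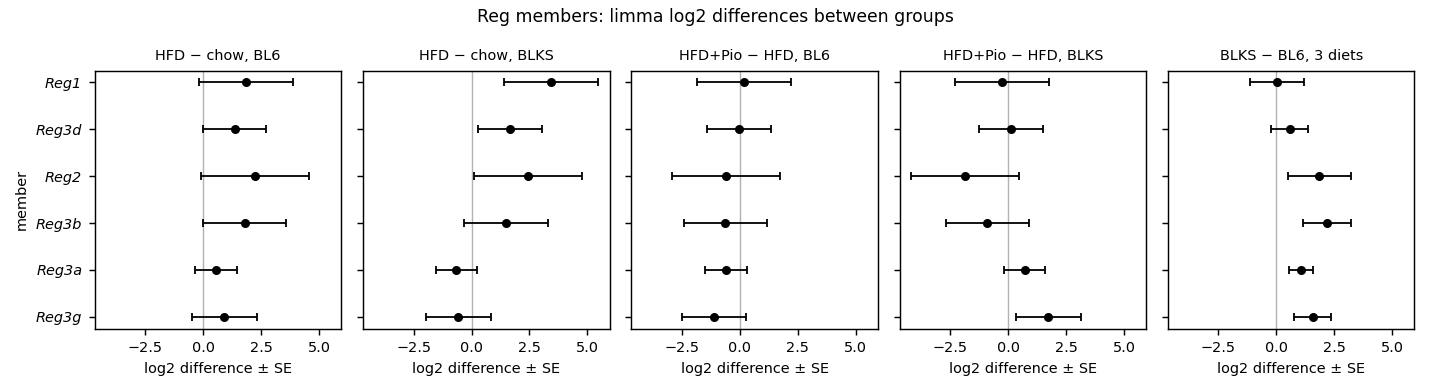
Dots give the limma log2 difference of each tested Reg member in 5 comparisons and bars give ± 1 SE. None passed an adjusted p of 0.05, and in the strain comparison Reg3b (2.18), Reg3a (1.08) and Reg3g (1.56) lie farthest from 0 relative to their SE. These 3 passed the filter on dim probes only with their BLKS arrays.

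The second comparison asked whether pioglitazone changed the members in mice on the HFD. Limma called 0 of 6 members in BL6, where 0.192% of all genes passed, and 0 of 6 in BLKS, where 0.00435% passed. In both strains 0 of 6 had an unadjusted p under 0.05, against 2377 of all genes in BL6 and 959 in BLKS. The BL6 differences were 0.18 ± 2.03 (SE, n = 4) for Reg1, -0.05 ± 1.37 for Reg3d, -0.59 ± 2.34 for Reg2, -0.62 ± 1.80 for Reg3b, -0.60 ± 0.89 for Reg3a and -1.12 ± 1.40 for Reg3g. The BLKS differences were -0.28 ± 2.03 for Reg1, 0.11 ± 1.37 for Reg3d, -1.86 ± 2.34 for Reg2, -0.90 ± 1.80 for Reg3b, 0.72 ± 0.89 for Reg3a and 1.73 ± 1.40 for Reg3g. With SEs of 0.89 to 2.34 log2 units, differences of several fold were not detectable at 4 mice a group.

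In BLKS mice given pioglitazone, the acinar score of mice 1 and 2 was 1.16 and 4.13 and that of mice 3 and 4 was 6.06 and 6.03. Reg2, Reg3a, Reg3b and Reg3g were near the floor in mice 1 and 2 and high in mice 3 and 4. The median difference of the acinar markers between the BLKS groups was 0.10. Directions depended on single mice here too: without mouse 3 of BL6 on HFD, the BL6 differences of Reg2, Reg3a and Reg3b were 0.64, 0.18 and 0.56.

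The difference of the diet effects between the strains was tested directly as an interaction. For the HFD effect, limma called 0 of 6 members against 0% of all genes (1947 of all genes had an unadjusted p under 0.05), with adjusted p-values of the members from 0.836 to 0.992. For the pioglitazone effect it called 0 of 6 against 0.00871% of all genes, with adjusted p-values from 0.793 to 0.988. No member had an unadjusted p under 0.05 in either test, against 1717 of all genes for the pioglitazone effect.

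The strains were compared next. Reg3b, Reg3a and Reg3g came nearest to the threshold, and no member passed it: averaged over the 3 diets, limma called 0 of 6 members, while it called 64.7% of all genes. The log2 difference of BLKS minus BL6 was 2.18 ± 1.04 (SE, n = 12 mice a strain) for Reg3b, with an adjusted p of 0.0719 in limma. It was 1.08 ± 0.52 for Reg3a (adjusted p = 0.0737) and 1.56 ± 0.81 for Reg3g (adjusted p = 0.0976), in both from levels mostly near the floor. It was 1.85 ± 1.35 for Reg2, 0.58 ± 0.79 for Reg3d and 0.02 ± 1.17 for Reg1. Reg3b, Reg3a and Reg3g were above background on 3, 1 and 1 BL6 arrays and on 9, 4 and 4 BLKS arrays. They passed the filter of at least 4 arrays only with the BLKS arrays, so their strain differences only describe them. Reg3b and Reg3a, 2 of 6 members, had an unadjusted p under 0.05, against 15483 of all 22968 genes.

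The values of Reg3b, Reg3a and Reg3g stood close to the threshold and moved with single mice. With 1 mouse left out, limma called 14493 to 15276 of all genes in this comparison, against 14855 of 22968 with every mouse. Without mouse 3 of BL6 on HFD, limma called 3 members, Reg3b at 2.58 (adjusted p = 0.0337), Reg3a at 1.34 (adjusted p = 0.0195) and Reg3g at 1.88 (adjusted p = 0.0446). The same 3 were called without mouse 1 of BLKS on HFD with pioglitazone, at 2.63, 1.27 and 1.88, and without mouse 2 of that group, at 2.69, 1.28 and 1.91. Without mouse 3 of that group the differences were at their lowest, 1.67 for Reg3b, 0.82 for Reg3a and 1.14 for Reg3g, and none was called. Without mouse 4 of BL6 on HFD with pioglitazone, 1 member was called, Reg3b at 2.56, and without mouse 4 of BLKS on HFD 1 was called, Reg3a at 1.24. With the acinar score as a covariate Reg3b was called (1.96, adjusted p = 0.0488 in limma), and with quantile normalization Reg3a was (1.21, adjusted p = 0.0482). The acinar markers themselves had a median strain difference of 0.11, with 2 of 31 called higher in BLKS (Ctrc and Nr5a2) and 1 called lower (Bhlha15).

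Within a single diet the strains differed in 41.6% of all genes on chow, 49.9% on HFD and 45.8% on HFD with pioglitazone, and limma called 0 of 6 members in each. The unadjusted p was under 0.05 for 11141 of all genes on chow, 12741 on HFD and 12001 with pioglitazone. Among the members it was under 0.05 for 0 of 6 on chow, 0 of 6 on HFD and 1 of 6 with pioglitazone. That member was Reg3g, at 2.97 ± 1.40 (SE, n = 4, adjusted p = 0.091 in limma), which passed the filter only with its BLKS arrays. Since no BL6 mouse on pioglitazone had Reg3g above background, its BLKS level can be given only as at least 2.56-fold the BL6 level, a bound that rests on 2 of the 4 BLKS mice. With 1 mouse left out the difference ranged from 1.71, without mouse 3 of the BLKS group, to 4.02. Limma called it only without mouse 1 (3.93, adjusted p = 0.0326) or mouse 2 (4.02, adjusted p = 0.0281) of that group, the 2 with Reg3g at background. On chow, limma did not call Reg3b (2.47 ± 1.80, SE, adjusted p = 0.293), and its BL6 and BLKS ranges overlapped. As a bound on means, its BLKS level was at least 3.18-fold the BL6 level, from 3 of 4 BLKS mice above background. That bound allows for the floor and not for the spread between mice.

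The members were then set against the acinar score over the 24 arrays. Reg1 and Reg3d followed the acinar score closely, and the other 4 members followed it less closely. Pearson's r was 0.98 for Reg1 and 0.92 for Reg3d, each with a permutation p of 1e-05, the smallest that 100000 resamples can give, and an adjusted p of 3e-05 over 6 tests. Spearman's rho was 0.95 and 0.97 (p = 1e-05 by permutation for both). With the arrays of lowest score left out, mouse 1 of BLKS on chow and mouse 4 of BL6 on chow, r was 0.95 for Reg1 and 0.97 for Reg3d.

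For Reg2, r was 0.67 (permutation p = 0.00029, adjusted p = 0.00058) and rho 0.74 (p = 9e-05), and r was 0.65 without those 2 arrays. For Reg3b, r was 0.60 (permutation p = 0.00177, adjusted p = 0.00265) and rho 0.64 (p = 0.00101), and r was 0.64 without them. For Reg3a, r was 0.45 (permutation p = 0.0256, adjusted p = 0.0297) and rho 0.51 (p = 0.0114). For Reg3g, r was 0.44 (permutation p = 0.0297, adjusted p = 0.0297), but rho was 0.28 (p = 0.187), so the rank relation did not pass. Without the same 2 arrays r was 0.59 for Reg3a and 0.54 for Reg3g.

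Within BL6, r was 0.95 for Reg1, 0.98 for Reg3d, 0.59 for Reg2, 0.51 for Reg3b, 0.37 for Reg3a and 0.05 for Reg3g. Within BLKS, r was 0.99 for Reg1, 0.89 for Reg3d, 0.73 for Reg2, 0.68 for Reg3b, 0.51 for Reg3a and 0.59 for Reg3g. After subtracting group means, r stayed at 0.97 for Reg1 and 0.91 for Reg3d. Within slides 1, 2 and 4, with 8, 6 and 8 arrays, r was 0.98, 0.99 and 0.98 for Reg1 and 0.99, 0.94 and 0.98 for Reg3d. For Reg2 it was 0.73, 0.63 and 0.68, for Reg3b 0.66, 0.36 and 0.74, for Reg3a 0.54, 0.06 and 0.76, and for Reg3g 0.17, 0.33 and 0.72, and none of these 12 passed an exact permutation test after adjustment over the 6 members.

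In a limma fit with group means and the acinar score, the slope per log2 unit of score was 1.29 ± 0.07 (SE, 24 arrays) for Reg1 and 0.81 ± 0.08 for Reg3d. These 2 of 6 members were called, with adjusted p-values of 6.11e-11 and 3.28e-06, where 0.366% of all genes were called. The score took the SD of Reg1 within groups from 3.02 to 0.70 and that of Reg3d from 2.04 to 0.85. The slopes of Reg2 (1.03 ± 0.26, adjusted p = 0.162), Reg3b (0.72 ± 0.21, adjusted p = 0.539), Reg3g (0.45 ± 0.18, adjusted p = 1) and Reg3a (0.33 ± 0.11, adjusted p = 0.952) did not pass. Their within-group SD went from 3.48 to 2.63 for Reg2, from 2.68 to 2.18 for Reg3b, from 2.09 to 1.86 for Reg3g and from 1.33 to 1.13 for Reg3a.

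Single arrays show the difference. Mouse 2 of BL6 on chow had an acinar score of 5.68 and Reg1 at 5.82, yet Reg3b there was -4.42, not above background, and Reg2 was -2.62. Mouse 4 of BL6 on HFD with pioglitazone had a score of 3.77 with Reg3b at -0.68 and Reg2 at 0.95. Mouse 2 of BLKS on HFD with pioglitazone had a score of 4.13 and Reg1 at 3.71, with Reg3b at -6.69 and Reg2 at -6.04.

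**Figure D3:**
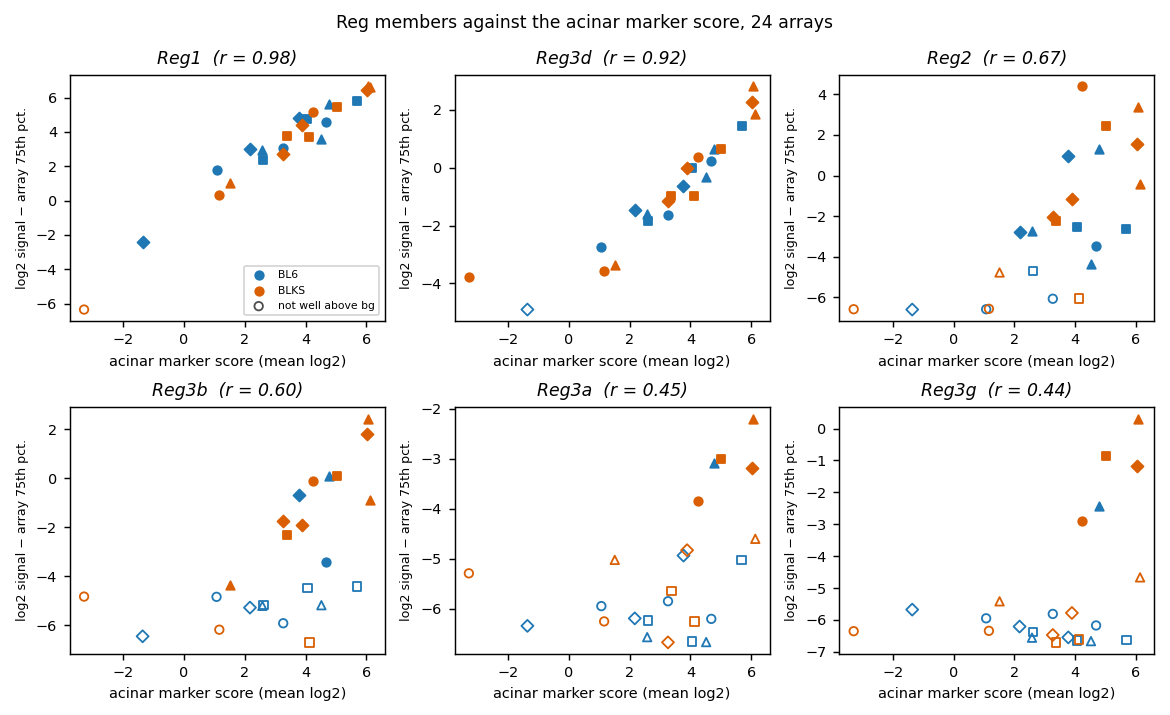
Each panel plots the log2 level of 1 member (vertical axis) against the acinar marker score, the mean log2 level of 31 acinar genes (horizontal axis), for 24 arrays; blue is BL6, orange is BLKS and open markers are not well above background. Reg1 (r = 0.98) and Reg3d (r = 0.92) lie along a line, while Reg2 and Reg3b fan out at high scores and Reg3a and Reg3g leave the floor on 5 arrays.

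The genes of most similar pattern were taken as the 5 with the highest Pearson r over the 24 arrays. For Reg1 they were Prss1, Cpb1, Pnliprp1, Try5 and Prss2, each at r = 0.98, which encode trypsinogens, a carboxypeptidase and a lipase-related protein. For Reg3d, 4 of the 5 were Klk1b22, Aqp12, Cela1 and Cuzd1, each at r = 0.96, again mostly acinar products. These points share the arrays and their exocrine content, so they are given as a description.

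For Reg2 the most similar genes were Ptf1a (r = 0.74), a transcription factor that acinar cells require, then Klk1b22 (0.71), Cabp2 (0.70), Klk1b8 (0.70) and Klk1b26 (0.70). For Reg3b they were Gpr4 (0.76), Ptf1a (0.74), Rhoj (0.72), Trim16 (0.72) and Tm4sf1 (0.71). For Reg3a they were Gpr4 (0.72), Ptf1a (0.71), Tm4sf1 (0.71), Rhoj (0.71) and Tpm2 (0.70). For Reg3g they were Tpm2 (0.78), Cytl1 (0.78), Actg2 (0.74), Cdh13 (0.72) and Tm4sf1 (0.71), and the Spearman rho of these 5 was 0.28 to 0.47. Actg2 and Tpm2 encode a smooth muscle actin and a tropomyosin, and Gpr4 and Rhoj are known from blood vessel cells.

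The members also varied with each other. Over 15 pairs, each tested with a permutation p and adjusted over the 15, the highest Pearson r was 0.91 for Reg2 and Reg3b (rho = 0.87), 0.91 for Reg3a and Reg3g (rho = 0.72), 0.89 for Reg1 and Reg3d (rho = 0.98) and 0.85 for Reg3a and Reg3b (rho = 0.75). The adjusted p of each of these 4 pairs was 2.14e-05, from the smallest p that the resamples can give. The lowest r was 0.44, for Reg1 and Reg3g (adjusted p = 0.0317), whose rho of 0.32 had an adjusted p of 0.141. With the 2 arrays farthest from the median of the first gene left out, r was 0.91 for Reg2 and Reg3b, 0.85 for Reg3a and Reg3g, 0.97 for Reg1 and Reg3d and 0.79 for Reg3a and Reg3b.

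After a linear fit of each member on the acinar score, a step chosen after the data had been seen, r was -0.14 for Reg1 and Reg3d. It was 0.86 for Reg2 and Reg3b, 0.89 for Reg3a and Reg3g, and 0.81 for Reg3a and Reg3b. No array was left out of this step, so its dependence on single arrays was not tested. On the array of lowest score, mouse 1 of BLKS on chow, Reg1 was -6.35, not above background, and Reg3d was -3.77. Reg1 retained r of 0.05 to 0.34 with Reg2, Reg3a, Reg3b and Reg3g, whereas Reg3d had 0.49 to 0.62 with the same 4. Deviations from group means gave r of 0.91 for Reg2 and Reg3b, 0.90 for Reg3a and Reg3g and 0.88 for Reg1 and Reg3d. Arrays off the floor weighed on these values. Reg2 and Reg3b correlated at 0.83 over the 11 arrays with both above background, but at 0.13 over the 7 with neither. With neither above background, r was 0.51 for Reg3a and Reg3g (19 arrays) and 0.30 for Reg3a and Reg3b (12 arrays). It was -0.38 for Reg3b and Reg3g (12 arrays), 0.29 for Reg2 and Reg3a (8 arrays) and 0.18 for Reg2 and Reg3g (8 arrays). Within slides 1, 2 and 4, Reg2 and Reg3b correlated at 0.82, 0.93 and 0.92, and Reg3a and Reg3g at 0.86, 0.91 and 0.97.

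**Figure D4:**
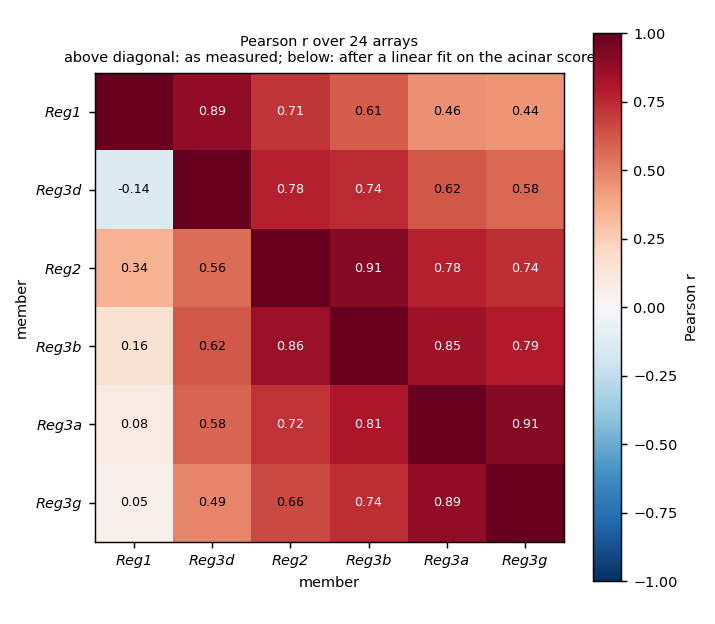
The grid gives Pearson's r between Reg members over 24 arrays, as measured above the diagonal and after a linear fit on the acinar score below it; colour runs from -1 (blue) to 1 (red). Reg2 and Reg3b go from 0.91 to 0.86 and Reg3a and Reg3g from 0.91 to 0.89, while Reg1 and Reg3d go from 0.89 to -0.14.

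The Il6 and Il22 pathway, the known inducer of Reg3 genes, differed between the strains in these islets. Of 29 measured of 30 listed pathway genes, limma called 20 higher and 5 lower in BLKS, against 30.1% of all genes called higher and 34.5% called lower, and the median log2 difference was 0.96 against -0.05 over all genes. Within a strain, limma called 0 of 29 under the HFD in BL6 and 0 of 29 in BLKS, with an unadjusted p under 0.05 for 2 and 3 of them.

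Il6, the cytokine itself, was above background on 12 of 12 BLKS arrays, between -0.28 and 2.31 with a median of 0.77, and on 0 of 12 BL6 arrays, between -6.79 and -4.73. The BLKS level was at least 38.5-fold the BL6 level (adjusted p = 1.53e-16 in limma). Socs3, a feedback inhibitor that Stat3 induces, was 3.21 ± 0.11 (SE) higher in BLKS, from 0.51 to 1.91 in BL6 and from 4.01 to 5.00 in BLKS. Stat3 was 1.92 ± 0.10 higher, from 3.43 to 4.53 in BL6 and from 5.29 to 5.95 in BLKS. Neither Socs3 nor Stat3 overlapped between the strains, with adjusted p-values in limma of 6.37e-16 and 4.81e-13. The share of all genes without such overlap is not given here, and limma called 64.7% of all genes between the strains.

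Among the receptors, Osmr (1.52 ± 0.12) and Il6st, the shared signalling chain (0.96 ± 0.09), were higher in BLKS, and Il6ra, the Il6-binding chain (-1.46 ± 0.09), and Lifr (-0.60 ± 0.08) were lower. Of the kinases, Jak2 (0.85 ± 0.04) and Jak1 (0.28 ± 0.06) were higher and Tyk2 (-0.45 ± 0.06) lower. Further Stat3 targets were higher in BLKS, namely Pim3 (2.34 ± 0.13), Pim1 (2.29 ± 0.27) and Bcl3 (2.18 ± 0.11). Il22, whose mean difference was 0.22 ± 0.23, did not pass (adjusted p = 0.409 in limma), and Il22ra1 was not kept after the filter on dim probes.

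The spread of these genes within a group was small beside that of the members, at 0.24 for Stat3, 0.27 for Socs3 and 0.55 for Il6 (pooled SD). Their slopes on the acinar score were -0.02 ± 0.02 for Stat3, 0.0007 ± 0.03 for Socs3 and 0.04 ± 0.05 for Il6, none called by limma. Both BLKS mice on pioglitazone with Reg3b at the floor, mice 1 and 2, had Il6 at 1.20 and 1.07, next to 0.94 and 1.02 in mice 3 and 4, where Reg3b was highest. Mouse 3 of BL6 on HFD, with Reg3b at 0.10, had Il6 at -6.65, not above background. These are single arrays, and whether any member follows Il6, Stat3 or Socs3 across arrays was not tested.

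**Figure D5:**
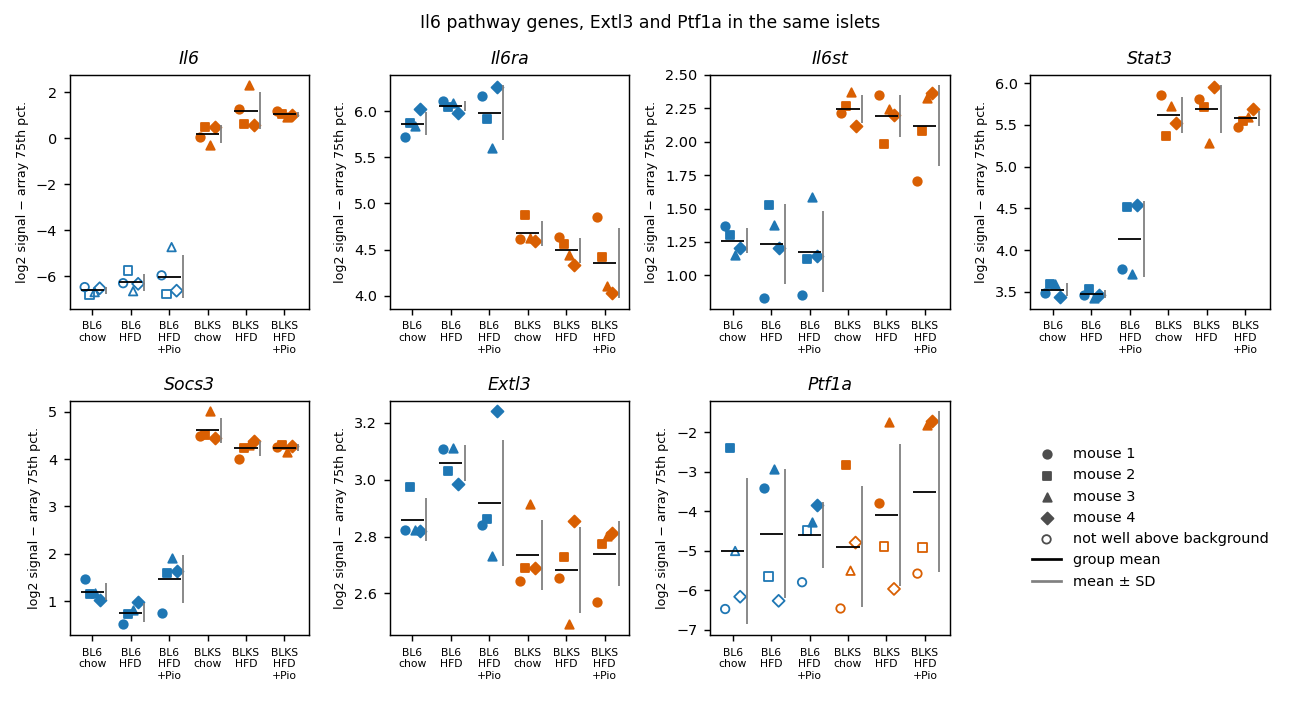
Each panel plots a pathway gene, the receptor gene Extl3 or the acinar factor Ptf1a: log2 processed signal minus the array's 75th percentile (vertical axis) in the 6 groups (horizontal axis), with points for mice, black bars for means and grey bars for mean ± SD; open markers are not well above background. Il6, Stat3 and Socs3 separate the strains with no overlap (Stat3 4.53 at most in BL6, 5.29 at least in BLKS), and Ptf1a spreads within groups.

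Genes of pancreatic injury and the acute phase, which are often induced together with Reg3 genes, also differed by strain. Of 18 measured of 25 listed, limma called 12 higher and 1 lower in BLKS, against 30.1% of all genes called higher and 34.5% called lower, with a median of 1.28 against -0.05 over all genes. The keratin genes Krt8 (3.45 ± 0.08) and Krt18 (1.94 ± 0.09), the fibrinogen chain Fgb (4.71 ± 0.35), Timp1, an inhibitor of matrix proteases (2.53 ± 0.22), clusterin (Clu, 1.39 ± 0.11) and Nupr1, a stress response gene (0.91 ± 0.13), were higher in BLKS. Tff3 was the 1 lower gene, at -1.95 ± 0.63. Of 12 ductal cell markers, 8 were also called higher in BLKS and 1 lower, with a median of 0.87. Which cells carried these differences was not tested. Under the HFD limma called 0 of 18 in BL6 and 0 of 18 in BLKS, with an unadjusted p under 0.05 for 0 and 1 of them.

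Of the 12 measured genes for the Reg receptor and its reported effectors, limma called 4 higher and 6 lower in BLKS, against 30.1% and 34.5% of all genes. Extl3 was lower by a small margin (-0.23 ± 0.06, adjusted p = 0.00179 in limma), with ranges of 2.73 to 3.24 in BL6 and 2.49 to 2.92 in BLKS that overlapped. The cyclin genes Ccnd1 (-0.77 ± 0.06) and Ccnd2 (-0.28 ± 0.07) were lower, and Egfr (0.84 ± 0.09) was higher. Of 13 measured other C-type lectins, 2 were called, against 64.7% of all genes, both higher in BLKS: Clec4d (4.09 ± 0.31), a receptor of myeloid cells, and Mbl2 (3.96 ± 0.32), a circulating mannose-binding lectin. Macrophage markers were mostly lower in BLKS, with 10 of 13 called lower and 1 higher, and of 11 lymphocyte markers 0 were called higher and 1 lower, beside the same shares of all genes. The part of these cell types in the members' values was tested only through the lymphocyte score as a covariate, with which limma also called 0 of 6 members in each comparison.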

How the data were processed

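Islet RNA of 24 mice was measured on 1-colour Agilent arrays, 1 array a mouse, and the titles of the samples gave the groups. Per the file headers, Agilent Feature Extraction 10.7.3.1 gave the deposited processed intensity of each spot, which is background-subtracted and not normalized between arrays. The raw and background intensity, also deposited, served 1 alternative. A deposited table of the authors' values, found to be the ratio of processed intensity to the array's median, served another. Probe coordinates are the files', on mm9.

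The log2 processed intensity was averaged per probe and set against the array's 75th percentile (217.6 to 402.4 intensity units). Probes well above background on at least 4 of 24 arrays were kept, 32750 in all, and the brightest stood for each of 22968 gene names. A model of 6 group means was fitted to all arrays in limma 3.58.1 (R 4.3.3), with 10 contrasts, 18 residual degrees of freedom and Benjamini-Hochberg adjustment at 0.05. On simulated data for the HFD comparison in BL6, with 22968 genes, this recovered 76 of 100 genes changed by 1 log2 unit and 95 of 100 changed by 2, with 10 false calls. The members had SDs within groups of 1.33 to 3.48, against a median of 0.21 over all genes, so this recovery need not apply to them.

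For a group with no array above background, a fold is given as "at least", the brighter group's mean against, per array, the higher of the lowest signal above background and the probe's own. Correlations used two-sided permutation tests in Python 3.11.15. Named genes were all members, the 5 genes of highest r with each, a set of reference genes, and from each gene list the called members and up to 3 of smallest p, of which a selection is printed. Members and lists were chosen with earlier results of these data known, so no pattern here is independent support. Each array is a different mouse per the labels, and the number of arrays limits the precision. No protein sequences were used here. Of the genes most similar to Reg3d, 1 is not reported here.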

Additional observations from a re-analysis of the deposited data

Results flagged for a closer look

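Among 42 sets of 4 values (7 members in 6 groups), 4 held a mouse far from the other 3. The cut picks about 1 in 20 sets of independent, normally spread values. Members varied together and many values lay at the floor, so the count was not set against that rate. In BL6 on HFD, mouse 3 stood apart for Reg3a at -3.09 and for Reg3g at -2.44, the only mouse of that group with either probe above background. In BLKS on chow, mouse 2 stood apart for Reg3g at -0.87, again the only mouse above background. In BL6 on HFD with pioglitazone, mouse 1 stood apart for Reg3g at -5.81, where no mouse of the group was above background.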

How the results depend on the processing

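Of 691 member differences recomputed under an alternative, 632 kept their direction and stayed short of the threshold, 44 changed sign and 15 passed it. For the strain comparison over the 3 diets, the number of members called was 1 with quantile normalization (Reg3a), 1 with the acinar score as a covariate (Reg3b) and 1 with no filter on dim probes (Reg4, at -0.28 with an adjusted p of 0.0319 in limma, though no array had it above background), and 0 to 3 with 1 mouse left out. With 1 mouse left out, limma called 14493 to 15276 of all genes in that comparison. For the strains on HFD with pioglitazone, the number of members called was 0 to 1 with 1 mouse left out, against 9463 to 10780 of all genes. In the other 8 contrasts it was 0 under every alternative that could be fitted. No member was kept when all 24 arrays had to be above background. Slide as a fixed term could be fitted only for the HFD in BL6 and pioglitazone in BLKS.

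Signs turned with the acinar score as a covariate for Reg1 under HFD in BL6 (-0.16), for Reg2 (-0.10), Reg3b (-0.28) and Reg3d (-0.36) under HFD in BLKS, for Reg1 under pioglitazone in BL6 (-0.26) and for Reg1 between strains (-0.37). With normexp and quantile normalization they turned for Reg3a under pioglitazone in BL6 (0.046) and Reg3b under pioglitazone in BLKS (0.58), and with quantile normalization for Reg1 between strains (-0.063). The r of Reg1 and Reg3d was -0.14 after the fit on the acinar score, added after seeing the data. The cause was not tested, save that the covariate removes what follows the acinar score.

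With 1 mouse left out, signs turned under HFD in BL6 for Reg3a (-0.24 to 0.86) and Reg3g (-0.050 to 1.26), and in BLKS for Reg3g (-1.34 to 0.67). Under pioglitazone in BL6 they turned for Reg1 (-0.33 to 0.76), Reg2 (-1.91 to 0.64), Reg3a (-0.96 to 0.18), Reg3b (-1.75 to 0.56) and Reg3d (-0.46 to 0.37), and in BLKS for Reg1 (-1.08 to 1.04), Reg3a (-0.044 to 1.31), Reg3b (-2.43 to 0.61) and Reg3d (-0.78 to 1.35). Between strains they turned for Reg1 (-0.47 to 0.85).

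The r with the acinar score no longer passed within slides 1, 2 and 4 for Reg2 (0.73, 0.63, 0.68), Reg3b (0.66, 0.36, 0.74), Reg3a (0.54, 0.062, 0.76) and Reg3g (0.17, 0.33, 0.72), with 8, 6 and 8 arrays.

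Mouse numbers name different animals. Over 60 same-numbered pairs the deviations correlated at -0.64 to 0.72 (median 0.04), with 28 over 0.1, so the numbers do not pair mice. With the replicate block, limma called 0 members in each contrast, and the strain difference of Reg3b had an adjusted p of 0.0754. In proportion, all-gene counts moved most within strains: 10 genes under HFD in BL6 (0 to 16 over the alternatives), 18 in BLKS (0 to 66), 44 under pioglitazone in BL6 (0 to 68) and 1 in BLKS (1 to 23), and 0 (0 to 11) and 2 (0 to 10) for the strain differences of the 2 effects. With 1 mouse left out they were 4 to 18, 2 to 14, 18 to 63, 1 to 52, 0 to 1 and 0 to 22. Counts of 0 for the first 3 came from fitting only the groups compared, and for HFD in BLKS also with the acinar score as a covariate. The strain counts, larger in number, were 14855 over the 3 diets (12469 to 16299), 9544 on chow (8135 to 11029), 11465 on HFD (9320 to 12335) and 10513 with pioglitazone (8587 to 11255). Low signal limits Reg3a, Reg3g and Reg3b, which were at background on 19, 19 and 12 arrays.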
